A study of Homo sapiens with 12 samples.

Results

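The tripartite motif (TRIM) family was followed across 3 human cancer cell lines. Members were taken by symbol from the deposited expression table: every row named TRIM with a number and at most a letter suffix, together with SPRYD5, the older symbol of TRIM51. This gave 56 of the 20545 gene symbols. HCT116 is a colon carcinoma line, HL60 a promyelocytic leukaemia line and SNU398 a hepatocellular carcinoma line. The cells were treated either with 5-Aza-CdR, that is decitabine, a nucleoside drug that depletes DNA methyltransferases and lowers DNA methylation, or with a treatment labelled Combination, whose components the labels do not list. All 6 groups are thus drug-treated cells of 1 line, with 2 arrays each and 12 arrays in all, no untreated array was analysed here, and every treatment difference below is combination minus 5-Aza-CdR on the log2 scale. The labels do not state whether the arrays of a group were separate cultures, and p-values then describe only how far these particular arrays scatter, which may be technical scatter.

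TRIM proteins carry a RING finger, B-box zinc fingers and a coiled coil, and many of them act as E3 ubiquitin ligases that join ubiquitin to a target protein. The domain that follows the coiled coil, often a SPRY domain, largely sets what each protein binds. Several members restrict viruses or tune innate immune signalling and are themselves interferon-induced, some read chromatin, and a group of SPRY-type copies on chromosome 11 arose by recent duplication in primates.

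In SNU398 the readings of the copies TRIM48, SPRYD5 and 2 near relatives gave the largest treatment differences of the family. The stretches before their RefSeq starts are shown because these readings were all lower in the combination there. Whether the probes tell these copies apart was not tested. RefSeq (GRCh38.p14) promoter windows of 250 bases before to 50 bases after a start were at hand for 39 of the 56 members. The 250 bases before the start are printed 5′ to 3′ for TRIM48 (chr11:55261905-55262154, plus strand), TRIM49D2 (chr11:89923814-89924063, plus strand), 1 of the RefSeq starts of TRIM49D1 (chr11:89920448-89920697, minus strand) and TRIM51 (chr11:55883047-55883296, plus strand). Capitals mark the block that a local alignment placed against another copy: against TRIM51 for TRIM48, and against TRIM48 for the others.
TRIM48: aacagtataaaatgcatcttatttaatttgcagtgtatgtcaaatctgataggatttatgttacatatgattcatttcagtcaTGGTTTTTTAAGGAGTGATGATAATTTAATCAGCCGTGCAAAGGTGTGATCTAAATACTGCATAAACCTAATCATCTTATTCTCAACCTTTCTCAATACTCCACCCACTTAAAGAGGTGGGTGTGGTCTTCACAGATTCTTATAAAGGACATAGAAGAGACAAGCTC
TRIM49D2: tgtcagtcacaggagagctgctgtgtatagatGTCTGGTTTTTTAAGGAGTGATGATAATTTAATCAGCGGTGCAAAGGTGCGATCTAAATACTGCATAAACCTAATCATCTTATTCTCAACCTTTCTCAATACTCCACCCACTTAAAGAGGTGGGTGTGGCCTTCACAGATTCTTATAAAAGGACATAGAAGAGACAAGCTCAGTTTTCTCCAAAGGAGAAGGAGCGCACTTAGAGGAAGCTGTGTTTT
TRIM49D1: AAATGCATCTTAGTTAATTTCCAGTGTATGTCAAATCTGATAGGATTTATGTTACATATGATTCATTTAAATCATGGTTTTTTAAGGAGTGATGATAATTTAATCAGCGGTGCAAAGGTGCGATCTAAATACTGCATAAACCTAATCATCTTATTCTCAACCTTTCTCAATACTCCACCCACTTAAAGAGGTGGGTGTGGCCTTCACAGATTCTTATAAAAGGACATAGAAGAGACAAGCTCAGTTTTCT
TRIM51: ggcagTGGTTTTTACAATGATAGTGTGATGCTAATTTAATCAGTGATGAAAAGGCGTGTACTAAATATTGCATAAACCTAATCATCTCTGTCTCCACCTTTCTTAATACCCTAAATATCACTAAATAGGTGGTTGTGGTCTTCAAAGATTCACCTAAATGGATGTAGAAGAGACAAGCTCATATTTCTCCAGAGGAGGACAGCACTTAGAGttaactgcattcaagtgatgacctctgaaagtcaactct
Over the aligned parts of the 300-base windows, TRIM48 was 96.8% identical to TRIM49D2 (222 aligned columns), 96.6% identical to TRIM49D1 (292 columns) and 78.1% identical to TRIM51 (210 columns). TRIM49D1 and TRIM49D2 were identical at all 226 aligned positions. The window at the other RefSeq start of TRIM49D1 aligned with that of TRIM48 over 36 columns only. The letters TATAAA, searched on both strands, lay 27 to 22 bases before the start of TRIM48 and again at -245 to -240 from it, 36 to 31 before that of TRIM49D1 and 75 to 70 before that of TRIM49D2. The TRIM51 window does not hold them. Of all 27305 genes with a window, 3819 hold this motif, and 3 of the 39 members do (TRIM2, TRIM46 and TRIM48). The TRIM48 and TRIM51 windows each hold 1 CpG and the TRIM49D2 window holds 5, against a median of 14 over all 35116 windows.

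HCT116 has values for 50 of the members, and HL60 and SNU398 for 55 each. TRIM58 has values in HCT116 alone, and TRIM14, TRIM16L, TRIM22, TRIM38, TRIM59 and TRIM69 in HL60 and SNU398 alone. On the replicate 2 arrays of HCT116, 17 of 50 members are listed at exactly 0 under both treatments, which is 34% of them against 28.6% of all symbols, and these zeros were taken as not measured, leaving 33 members measured on all 12 arrays. Levels in HCT116 were not tested against the other lines, because its symbols differ and its values may come from a separate array version or normalization. The tests of a difference in response between lines, given further below, do include HCT116 and may carry the same limit. As log2 of the summed linear values, the promyelocyte markers (MPO, ELANE, PRTN3, AZU1, CD33, CTSG) lay at 17.1 to 17.3 on the HL60 arrays and at most at 10.4 on any other. The hepatocyte markers with values (ALB, APOA1, SERPINA1, TF) gave 9.75 to 9.92 in SNU398 and 11.4 to 11.9 in HL60, so they did not mark SNU398. Fibroblast markers were at 13.6 to 13.7 in SNU398, led by COL3A1, under both treatments, at 10.2 to 10.7 in HL60 and at most at 10.7 in HCT116. Colon markers gave 11.7 to 13.9 in HCT116, 11.8 to 12.1 in SNU398 and 10.46 to 10.53 in HL60, so the ranges of HCT116 and SNU398 overlapped. The part of such markers in the results below was not tested.

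Levels of the family members ranged widely on each array (the heat map of levels by array). In HCT116 the highest medians over the 4 arrays belonged to TRIM28 (11.37), TRIM26 (10.27), TRIM8 (10.03), TRIM47 (9.83) and TRIM25 (9.41). In HL60 they belonged to TRIM8 (11.60), TRIM44 (11.10), TRIM28 (10.85), TRIM21 (10.49) and TRIM66 (10.29), and in SNU398 to TRIM44 (12.15), TRIM8 (11.65), TRIM28 (11.38), TRIM26 (10.77) and SPRYD5 (10.67). TRIM28, a corepressor recruited to chromatin by KRAB zinc finger proteins, and TRIM8, a regulator of cytokine signalling, were thus among the top 5 in every line. Probes differ in how brightly they report, so the order within a line ranks readings on the array and not transcript numbers, and in each of these top 5 lists the ranges of neighbours overlapped.

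**Figure D1:**
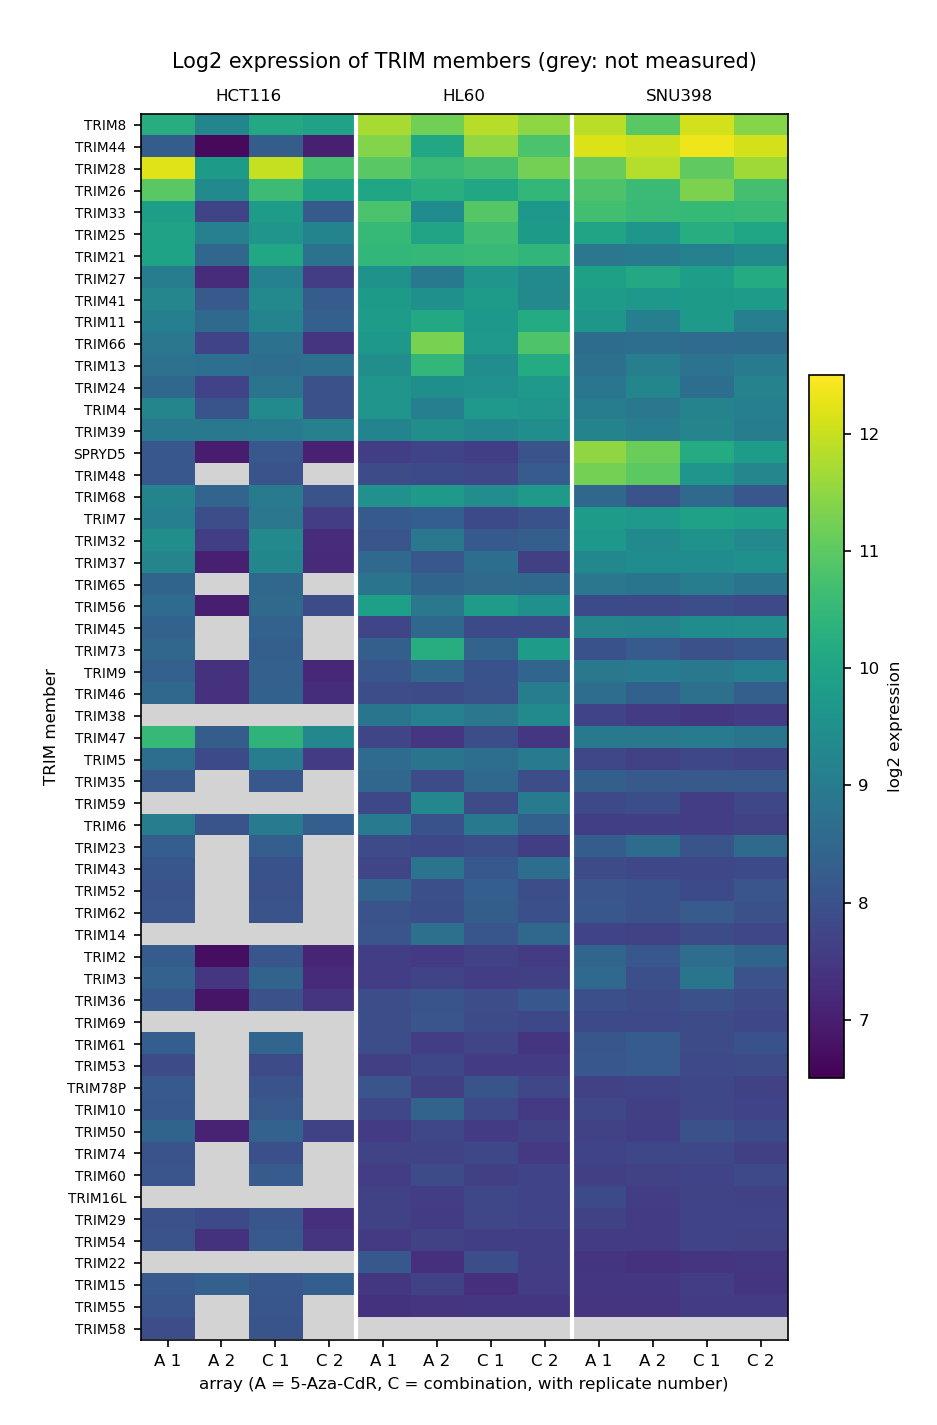
Log2 expression of the 56 TRIM members (rows, ordered by their mean over HL60 and SNU398) on the 12 arrays (columns), with colour for the value and grey for values that were not measured. SPRYD5 and TRIM48 are bright on the SNU398 arrays, more so under 5-Aza-CdR (A) than under the combination (C), and dark elsewhere.

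At the other end of the order were TRIM55 and TRIM54, muscle RING finger proteins, and TRIM2, an NHL-repeat protein best known from neurons, among others. The lowest medians in HL60 were those of TRIM55 (7.44), TRIM15 (7.52), TRIM2 (7.59), TRIM53 (7.60) and TRIM47 (7.61). In SNU398 they were those of TRIM22 (7.42), TRIM15 (7.45), TRIM55 (7.48), TRIM38 (7.57) and TRIM6 (7.61), and in HCT116, among members measured on all 4 arrays, those of SPRYD5 (7.59), TRIM2 (7.61), TRIM44 (7.65), TRIM36 (7.70) and TRIM54 (7.72). TRIM44, which lacks the RING finger of its relatives, had the highest median in SNU398 and the third lowest in HCT116. The family median was 8.24 in HCT116, 8.27 in HL60 and 8.33 in SNU398, where the medians over all symbols were 8.27, 8.58 and 8.55. A median level above 9 was seen for 6 of 50 members in HCT116 (12%, against 28.2% of all symbols), 18 of 55 in HL60 (32.7%, against 41.0%) and 19 of 55 in SNU398 (34.5%, against 40.4%).

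In SNU398 the copies TRIM48 and SPRYD5 were lower in the combination than in 5-Aza-CdR alone by more than any other member. TRIM48, a RING and SPRY protein of the duplicated group on chromosome 11, read 11.24 and 10.99 on the 5-Aza-CdR arrays and 9.66 and 9.28 on the combination arrays. SPRYD5 (TRIM51), another copy of that group, read 11.50 and 11.16 under 5-Aza-CdR and 10.19 and 9.81 under the combination. For both genes each combination array lay below each 5-Aza-CdR array, so the groups did not overlap, and both stayed well above the levels in the other lines. In those lines TRIM48 read 7.78 to 8.24 in HL60 and 8.03 to 8.12 on the 2 HCT116 arrays that measured it, and SPRYD5 read 7.61 to 8.02 in HL60 and 6.99 to 8.13 in HCT116. On the SNU398 arrays TRIM48 stood at the 88.1 and 86.3 percentiles of all symbols under 5-Aza-CdR and at the 70.4 and 64.9 percentiles under the combination, against 19.2 to 40.5 in HL60.

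**Figure D2:**
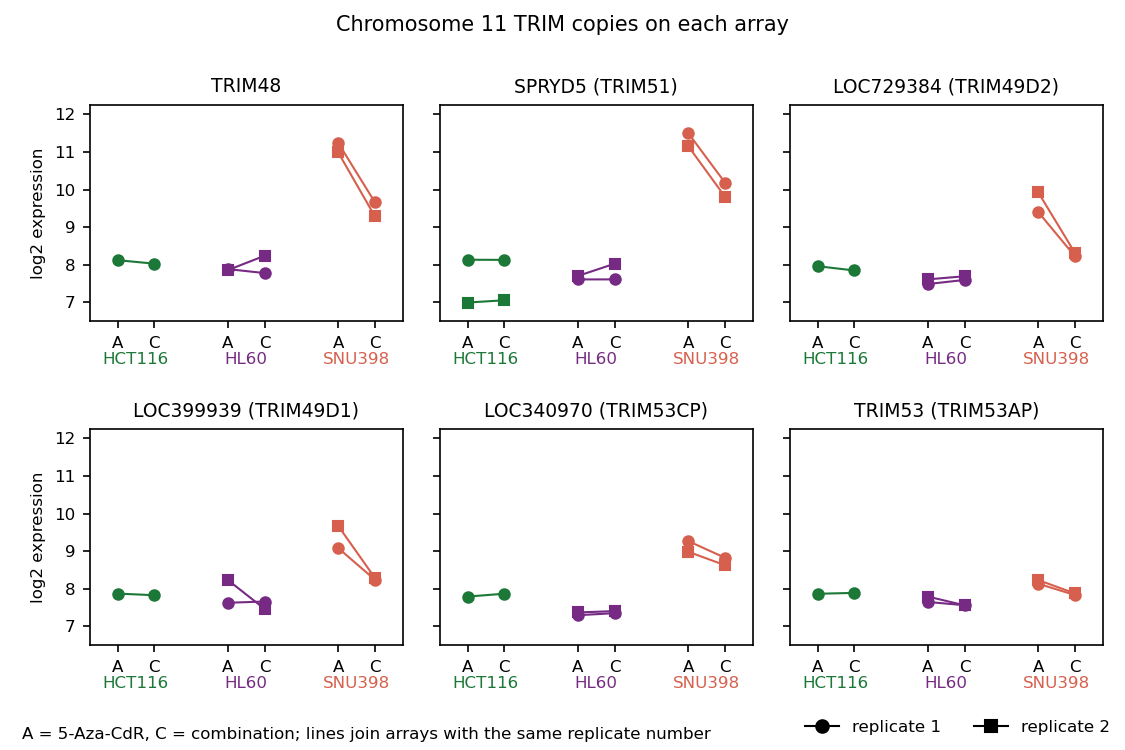
Log2 expression (y axis) of 6 TRIM copies on each array, with arrays of the same replicate number joined from 5-Aza-CdR (A) to combination (C) in HCT116, HL60 and SNU398. In SNU398 all 6 slope down in both pairs, with pair differences of -1.58 and -1.71 for TRIM48, and TRIM48 and SPRYD5 lie above every array of the other lines that measured them.

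The mean pair difference in SNU398 was -1.64 for TRIM48, a 3.13-fold lower value, and -1.33 for SPRYD5, a 2.52-fold lower value. Pair by pair TRIM48 gave -1.58 and -1.71, and SPRYD5 gave -1.32 and -1.35. Among the 19402 symbols of this line these were the lowest and the third lowest mean differences. Only 3 of 19402 symbols (0.0155%) were at least 2-fold lower in both pairs, namely TRIM48, SPRYD5 and LOC729384, which RefSeq names TRIM49D2.

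Whether these differences passed a test depended on the fit. A fit without pairing counts the offset shared by arrays of the same replicate number as scatter. Its lack of calls therefore does not show that nothing differed. limma on the 6 group means without pairing called 0 of 55 members in SNU398 (0% of 19402 symbols, with 32 symbols at an unadjusted p under 0.05), and gave TRIM48 a standard error of 0.27, an unadjusted p of 0.000978 and an adjusted p of 1.00. With the replicate number as a block over all 6 pairs, limma called 0 members (429 symbols at an unadjusted p under 0.05), with adjusted p of 0.416 for TRIM48 and 0.268 for SPRYD5. Fitted to the 2 pair differences of SNU398 alone, limma gave TRIM48 a standard error of 0.08 and an adjusted p of 6.83e-08, and SPRYD5 an adjusted p of 3.61e-07. This last fit called 5 of 55 members, where it called 710 of 19402 symbols (3.66%). It has 1 residual degree of freedom per gene and takes its spread from SNU398 alone.

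In that fit 3 of 55 members fell (1.23% of all symbols fell) and 2 of 55 rose (2.43% of all symbols rose). TRIM53, which RefSeq lists as the pseudogene TRIM53AP, read 8.13 and 8.23 under 5-Aza-CdR and 7.83 and 7.87 under the combination. It fell by 0.33 (adjusted p 0.0356, limma on the SNU398 pairs), and its groups did not overlap. TRIM25, the ligase that ubiquitinates the RNA sensor RIG-I, read 10.01 and 9.65 under 5-Aza-CdR and 10.24 and 10.05 under the combination. It rose by 0.32 (adjusted p 0.0475, limma on the SNU398 pairs) with both combination arrays above both 5-Aza-CdR arrays. TRIM8 read 11.88 and 10.96 under 5-Aza-CdR and 12.10 and 11.42 under the combination. It rose by 0.34 (adjusted p 0.0417, limma on the SNU398 pairs), but its groups overlapped, because the arrays with replicate number 1 were higher than those with number 2 in both treatments. Leaving out 1 array in the unpaired fit, which brings that offset between replicates into the difference, moved its difference between -0.12 and 0.80.

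A further 6 table entries have a symbol of the form LOC with a RefSeq gene ID that RefSeq now names TRIM, and all 6 lie on chromosome 11. They stand outside the symbol rule, and the match was made after values had been seen. LOC729384 (TRIM49D2) read 9.40 and 9.93 under 5-Aza-CdR in SNU398 and 8.22 and 8.31 under the combination. LOC399939 (TRIM49D1) read 9.08 and 9.67 and then 8.24 and 8.29. LOC340970 (TRIM53CP, a pseudogene) read 9.27 and 8.98 and then 8.82 and 8.62. In all 3 the combination arrays lay below the 5-Aza-CdR arrays without overlap. All 3 lay above every HL60 and HCT116 array that measured them (6 arrays each), though LOC399939 by as little as 8.24 against 8.23. The SNU398 means fell by 1.40, 1.12 and 0.40, with adjusted p of 1.76e-06, 2.90e-05 and 0.0117 in limma on the SNU398 pairs and of 1.00 in the unpaired fit. LOC729384 had the second lowest and LOC399939 the fifth lowest mean difference of the 19402 symbols. The other copies did not share this pattern: LOC642446 (TRIM64B) had a mean difference of -0.01 and LOC399940 (TRIM51EP) of -0.05 in SNU398, TRIM43 on chromosome 2 had -0.01, and LOC283116 (TRIM49B) had values in HCT116 alone. A probe may not tell such related copies apart; the probe sequences were not used here, so whether these readings are separate measures of separate genes was not tested.

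All 4 antiviral members had a mean difference above 0 in SNU398, at most 0.32, where 49.1% of all symbols and 63.6% of the members were above 0. TRIM25 alone among the 4 passed the test on the SNU398 pairs. TRIM21, a cytosolic receptor for antibody-coated virus, read 8.87 and 8.99 under 5-Aza-CdR and 9.13 and 9.34 under the combination, without overlap. Its mean difference was 0.30, with an adjusted p of 0.0538 in limma on the SNU398 pairs. TRIM5, which restricts retroviral capsids, read 7.78 and 7.69 and then 7.79 and 7.73, and TRIM22, an interferon-induced restriction factor, read 7.44 and 7.35 and then 7.40 and 7.47. Both differed by no more than their arrays did within a treatment, with means of 0.03 and 0.04, and TRIM22 lay at or under the 1.41 percentile of all symbols on every SNU398 array, so its reading there was near the lowest on the array. The median over the 4 members was 0.17, against -0.003 over all symbols.

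**Figure D3:**
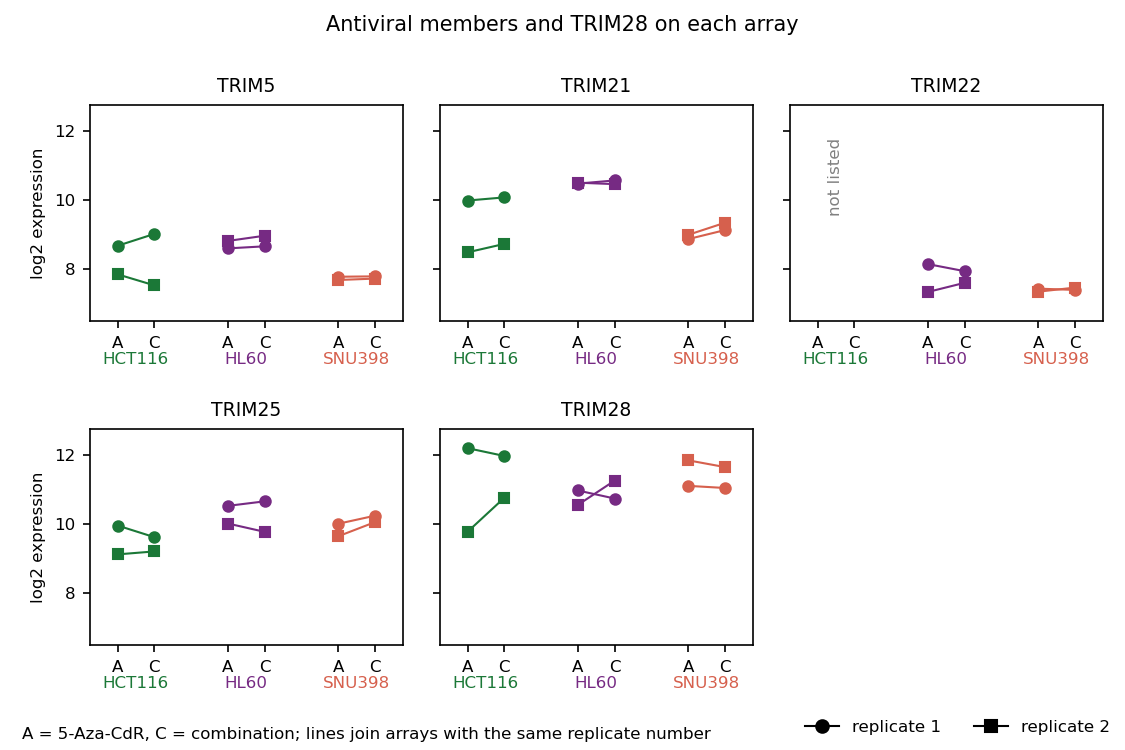
Log2 expression (y axis) of the antiviral members TRIM5, TRIM21, TRIM22 and TRIM25 and of TRIM28 on each array, joined by replicate number from 5-Aza-CdR (A) to combination (C) in the 3 lines. TRIM21 and TRIM25 slope up in both SNU398 pairs, and TRIM28 slopes in opposite directions in the pairs of HCT116 and of HL60.

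In HL60 and HCT116 the antiviral members gave no call in any limma fit. TRIM21 read 10.48 and 10.50 under 5-Aza-CdR and 10.57 and 10.46 under the combination in HL60, a mean difference of 0.02, and 9.99 and 8.49 and then 10.08 and 8.73 in HCT116, a mean of 0.17. TRIM25 read 10.53 and 10.02 and then 10.66 and 9.77 in HL60, and 9.96 and 9.12 and then 9.62 and 9.21 in HCT116, with opposite signs in the pairs of both lines. TRIM5 read 8.60 and 8.82 and then 8.66 and 8.97 in HL60, and 8.68 and 7.85 and then 9.02 and 7.53 in HCT116. The HL60 arrays of TRIM5 overlapped between treatments, and the HCT116 pairs again had opposite signs. TRIM22 read 8.15 and 7.34 and then 7.94 and 7.60 in HL60, with pairs of opposite sign, and has no HCT116 value.

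Interferon-stimulated genes outside the family are given beside the antiviral members. Of 30 such genes, a list whose members an earlier account of these data had shown, 27 were above 0 in HCT116 with a median of 0.66, 17 in HL60 with a median of 0.05 and 22 in SNU398 with a median of 0.21. Over all symbols 54.3% were above 0 in HCT116, 54.5% in HL60 and 49.1% in SNU398. limma on the pairs of 1 line called 9 of 26 tested higher in HCT116 (0.17% of all symbols), 0 of 30 in HL60 (0%) and 13 of 30 in SNU398 (2.43%), and none lower. The unpaired fit and the fit with the replicate block called 0 of the 30 in every line. In HCT116, where the list's median was largest, the 3 antiviral members with values had a median of 0.01. Of 11 genes around RIG-I, the sensor that TRIM25 acts on, ISG15 (0.63, adjusted p 0.00198, limma on the SNU398 pairs) and IRF7 (0.57, adjusted p 0.00130) rose in SNU398. Both are also among the 30 genes above. None was called lower, with 7 of the 11 above 0 and 4 below. In HCT116 9 were above 0 and 2 below, and in HL60 6 and 5, with none called in any fit. The HCT116 means of IRF7 (0.88) and ISG15 (0.72) were larger than those in SNU398, with both pairs above 0, while TRIM25 had -0.13 there.

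The core of the interferon-stimulated response element, GAAA followed by any 2 bases and GAAA again, was searched on both strands in the promoter windows, and is shown in capitals for 4 of the antiviral or interferon-linked members that hold it. It was found in 7 of 39 members (17.9%; TRIM2, TRIM5, TRIM14, TRIM21, TRIM26, TRIM44 and TRIM69), against 4.38% of all 27305 genes. The windows printed 5′ to 3′ on the gene's strand are chr11:5685087-5685106 for TRIM5, chr11:4393665-4393690 for TRIM21, chr9:98119234-98119253 for TRIM14 and chr6:30213580-30213605 for TRIM26, all on the minus strand of GRCh38.p14.
TRIM5: ttatcTTTCACTTTCctgcc
TRIM21: gagcgGAAACTGAAAGTGAAAtaggg
TRIM14: cgaggTTTCGGTTTCccttg
TRIM26: cctgaTTTCAGTTTCCATTTCgctgc
The TRIM21 and TRIM26 stretches each hold 2 overlapping matches, that of TRIM21 18 to 33 bases after the RefSeq start. TRIM25 has a window without these letters, and TRIM22 had no window at hand. A match is a description of letters and not of binding.

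TRIM28 gave no call in any line or fit, and its pairs differed in sign in HCT116 and HL60. In HCT116 it read 12.20 and 9.78 under 5-Aza-CdR and 11.97 and 10.76 under the combination, a mean difference of 0.38 from pairs of -0.23 and 0.98. In HL60 it read 10.97 and 10.55 and then 10.74 and 11.26, with a mean of 0.23 from pairs of -0.23 and 0.70. In SNU398 it read 11.10 and 11.84 and then 11.04 and 11.65, with a mean of -0.13. The spread between arrays of 1 treatment was larger than the treatment difference in every line. TRIM24, TRIM33 and TRIM66, which with TRIM28 form the group with a PHD finger and a bromodomain, were below 0 in SNU398 together with TRIM28 (4 of 4, median -0.10, none called), and 3 of the 4 were above 0 in HCT116 and in HL60. Of all symbols 49.1% were above 0 in SNU398, 54.3% in HCT116 and 54.5% in HL60. Of 12 partners of TRIM28 in heterochromatin, 1 was called in limma on the SNU398 pairs, where 3.66% of all symbols were called and 1.23% called lower. This was CBX1 (HP1 beta), a reader of methylated histone H3. It fell by 0.31, with an adjusted p of 0.050 after rounding (limma on the SNU398 pairs), so the call lay at the threshold. The other 11 did not pass. None passed in HCT116 or HL60, where that fit called 0.202% and 0% of all symbols.

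In HCT116 and HL60 no member was called in the unpaired limma fit, in the fit with the replicate block or in the fit to the pairs of 1 line. The unpaired fit called 0% of symbols in each, with 19 of 17284 in HCT116 and 26 of 19402 in HL60 at an unadjusted p under 0.05. On the pairs of 1 line, limma called 0 of 33 members in HCT116, where 25 of 12349 symbols (0.202%) were called, 0.17% higher and 0.0324% lower, and 0 of 55 in HL60, where 0 of 19402 (0%) were called and 184 had an unadjusted p under 0.05. Over all symbols the standard deviation of the pair differences was 0.158 in pair 1 and 0.552 in pair 2 of HL60, 0.215 and 0.434 in HCT116, and 0.169 and 0.180 in SNU398, so the second pair was the wider one in HL60 and HCT116.

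**Figure D4:**
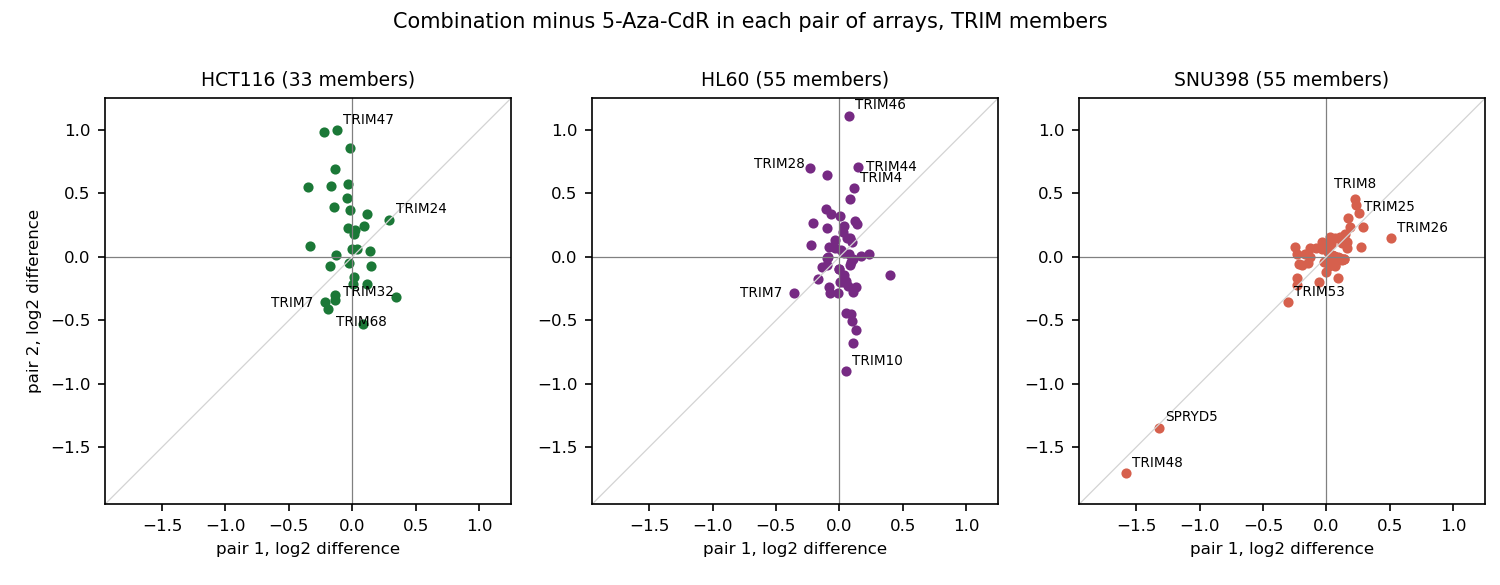
Combination minus 5-Aza-CdR (log2) in pair 1 (x axis) against pair 2 (y axis) for members measured in both pairs, 33 in HCT116 and 55 in HL60 and SNU398, with the diagonal in grey. In SNU398 the points lie near the diagonal with TRIM48 and SPRYD5 far below the rest, and in HCT116 and HL60 pair 2 spreads further than pair 1.

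The largest differences with the same sign in both HCT116 pairs were those of TRIM68, TRIM24, TRIM7 and TRIM32. TRIM24, a nuclear receptor cofactor, read 8.51 and 7.70 under 5-Aza-CdR and 8.80 and 7.99 under the combination, so that both pairs gave 0.29. TRIM68 read 9.20 and 8.45 and then 9.0 and 8.04, a mean of -0.30. For both the groups overlapped, since the array of replicate 1 lay above that of replicate 2 in each treatment. TRIM7 had a mean of -0.29 and TRIM32, an NHL-repeat ligase linked to muscular dystrophy, of -0.24. TRIM39 was the only one of 33 members whose HCT116 groups did not overlap with the combination higher (8.93 and 8.93, then 8.94 and 9.11), where 0.85% of symbols did so, and none was lower, where 5.43% did so.

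In HL60 the largest same-sign differences were those of TRIM46, TRIM44, TRIM4 and TRIM7. TRIM46, which organises microtubules in the axon, read 7.92 and 7.90 under 5-Aza-CdR and 8.0 and 9.01 under the combination. Its mean of 0.59 came almost wholly from pair 2, which gave 1.11 where pair 1 gave 0.07. TRIM44 gave a mean of 0.43 (pairs 0.15 and 0.71) and TRIM4 of 0.33 (pairs 0.11 and 0.54). TRIM7 read 8.21 and 8.28 and then 7.85 and 8.0, a mean of -0.32 without overlap. In all, 4 of 55 members had HL60 groups that did not overlap with the combination higher (TRIM16L, TRIM29, TRIM46 and TRIM55; 8.37% of symbols) and 3 with it lower (TRIM7, TRIM53 and TRIM69; 6.34%).

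In SNU398, 12 of 55 members had groups that did not overlap with the combination higher (12.6% of symbols) and 5 with it lower (12.1%). The higher ones were TRIM4, TRIM7, TRIM14, TRIM21, TRIM25, TRIM29, TRIM37, TRIM45, TRIM50, TRIM54, TRIM55 and TRIM60, and the lower ones SPRYD5, TRIM48, TRIM53, TRIM59 and TRIM61. Across the family the median difference was 0.02 in HCT116, 0.02 in HL60 and 0.03 in SNU398, where all symbols gave 0.02, 0.02 and -0.003. Differences within 0.5 of 0 were seen for all 50 members in HCT116 (95.8% of all symbols), for 54 of 55 in HL60 with TRIM46 beyond (98.2%, against 89.8% of all symbols), and for 53 of 55 in SNU398 with TRIM48 and SPRYD5 beyond (96.4%, against 99.1%). In HCT116 only 33 of the 50 have both pairs, and the rest are values of pair 1 alone. Pair 2 of the HCT116 members by itself ran from -0.53 to 1.00.

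The difference in response between lines was tested directly and did not pass for any member. Over the 49 members in all 3 lines, limma's F test without pairing gave TRIM48 the smallest unadjusted p (0.00838). SPRYD5 (0.0948), TRIM10 (0.507), TRIM45 (0.534) and TRIM46 (0.603) followed. All of these had an adjusted p of 1.00. The TRIM48 response in SNU398 was lower than that in HL60 by 1.78 on the log2 scale (standard error 0.38), where limma's unadjusted p was 0.00368. With the replicate block the adjusted p for TRIM48 was 0.826 for the difference between SNU398 and HL60 and 0.917 for that between SNU398 and HCT116. In that fit limma's F test gave SPRYD5 the smallest unadjusted p of the members (0.000224). TRIM48 had 0.000936 there, and the adjusted p was 0.872 for both. Between SNU398 and HL60 limma with the block gave an unadjusted p of 0.000127 for SPRYD5 and 0.000411 for TRIM48. No symbol was called in these tests, 0% of 16141 in the F test and 0% of 19402 between SNU398 and HL60, with 8 and 11 at an unadjusted p under 0.05 in the unpaired fit and 549 and 534 with the block. The unpaired fit counts the offset between replicate numbers as scatter, so its lack of calls does not show equal responses.

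Between HL60 and SNU398, averaged over the treatments, 5 of 55 members differed in level in limma on the 2 replicate means of each line, where 1245 of 19402 symbols (6.42%) did. Higher in SNU398 were 3 members (4.1% of symbols), SPRYD5, TRIM48 and TRIM7. The replicate means of SPRYD5 were 7.61 and 7.86 in HL60 and 10.85 and 10.48 in SNU398, a difference of -2.93 (adjusted p 0.0187, limma). Those of TRIM48 were 7.83 and 8.05 against 10.45 and 10.14, a difference of -2.36 (adjusted p 0.0227, limma). TRIM7, a SPRY-type ligase first described through its binding to glycogenin, had means of 8.03 and 8.14 against 9.87 and 9.80, a difference of -1.75 (adjusted p 0.0254, limma). For each of the 3 every SNU398 array lay above every HL60 array. On the 5-Aza-CdR arrays alone the difference was -3.68 for SPRYD5 and -3.25 for TRIM48, and on the combination arrays alone it was -2.18 and -1.47.

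Higher in HL60 were 2 members (2.31% of symbols), TRIM21 and TRIM38. The replicate means of TRIM21 were 10.52 and 10.48 in HL60 and 9.0 and 9.17 in SNU398, a difference of 1.42 (adjusted p 0.0373, limma). Those of TRIM38, which limits innate immune signalling, were 8.85 and 9.24 against 7.59 and 7.57, a difference of 1.47 (adjusted p 0.0499, limma). TRIM5 had a difference of 1.02 that did not pass (adjusted p 0.0780, limma), as did TRIM25 (0.26), TRIM22 (0.35) and TRIM28 (-0.53). The count rested on few values: it was 0 without either SNU398 replicate, 23 without HL60 replicate 1 and 14 without HL60 replicate 2.

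**Figure D5:**
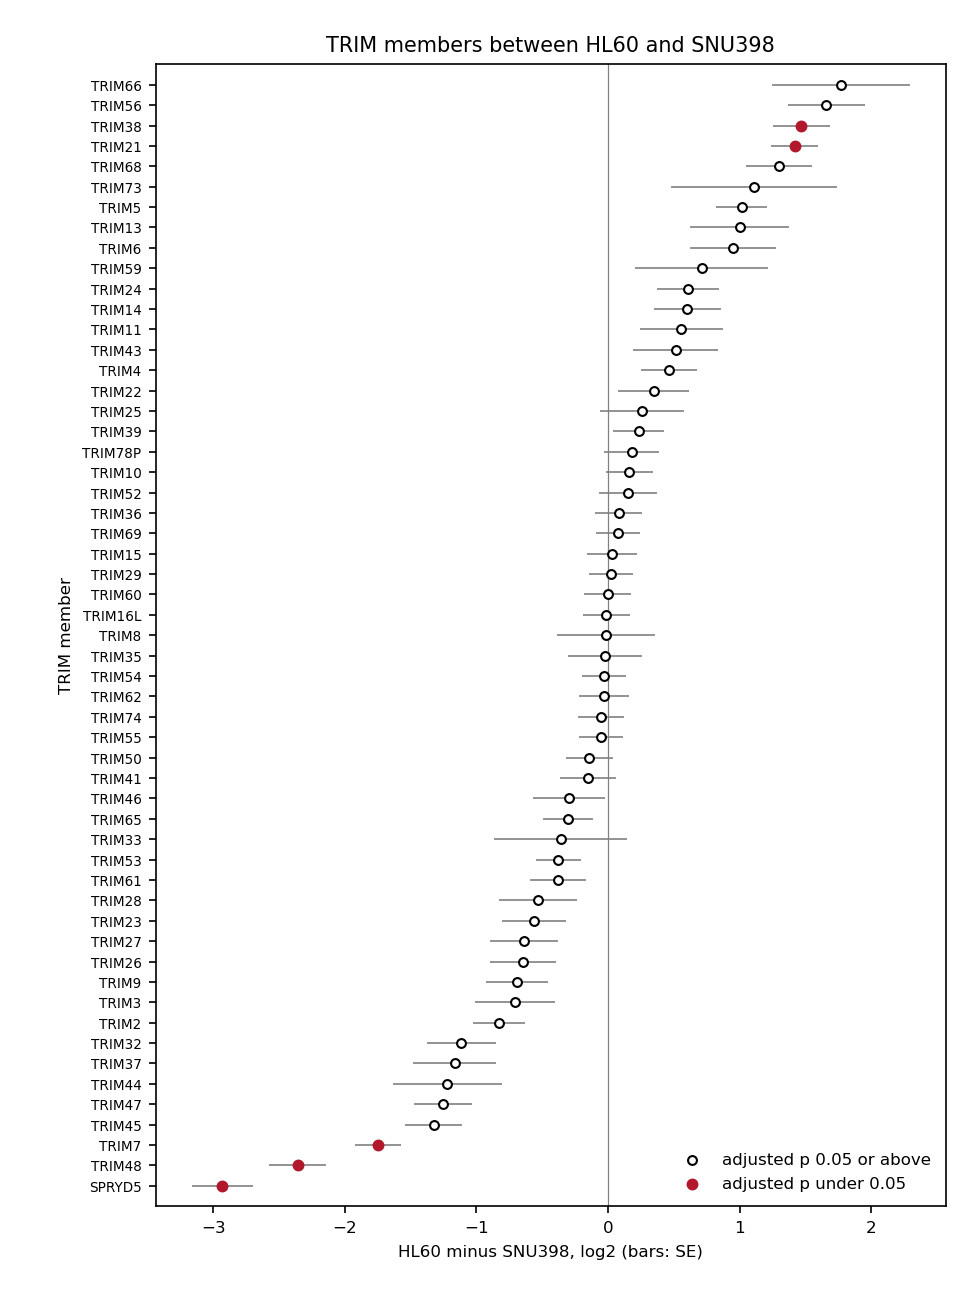
HL60 minus SNU398 difference in log2 level (x axis, bars are standard errors from limma) for the 55 members with values in both lines, sorted. Filled red points mark the 5 members with an adjusted p under 0.05, from SPRYD5 at -2.93 to TRIM38 at 1.47.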

How the data were processed

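Total RNA was measured on Illumina bead arrays in 3 lines, 2 treatments and 2 arrays a group, which the sample titles name. The deposited table holds 1 log2 value per gene symbol and array. The unit was read from the range of values. The submitters' processing notes name limma; no source used here gives the background correction, the normalization or the probe choice. Exact zeros were taken as not measured. A further bead-level table with 44 columns for 11 arrays matches no sample's labels and was not used, and arrays give no count from which a depth could be stated; their number limits the precision.

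limma 3.58.1 (lmFit, eBayes) in R 4.3.3 was fitted to all symbols, with Benjamini-Hochberg adjustment over all symbols of a contrast, two-sided, and calls at an adjusted p under 0.05. The main fit took the 6 group means over 12 arrays (6 residual degrees of freedom). Alternatives were the replicate number as a block (3 degrees of freedom), the 2 pairs of 1 line alone (1 degree of freedom), median centring, quantile normalization, a mean log2 level of at least 9, trended and robust variance, zeros as measured, and leaving out each array. Replicate numbers pair the arrays: deviations of same-numbered arrays from their group means correlated over symbols by 0.907 in HCT116, 0.883 in HL60 and 0.841 in SNU398. The unpaired fit leaves this shared offset in its scatter, so its lack of calls does not show that a member was unchanged. Levels of HL60 and SNU398 were compared on the mean of the treatments per replicate number. On simulated data at the sizes of 12349 symbols, the unpaired fit recovered 6 of 100 symbols changed by log2 1 and 96 of 100 changed by log2 2. The fit to the pairs of 1 line recovered 100 of 100 at both sizes with 13 wrong calls, and the unpaired test of a difference in response between SNU398 and HL60 recovered 0 of 100 at log2 1 and 35 of 100 at log2 2. The simulation gave every symbol and every line the same scatter. On the arrays the standard deviation of the pair differences ran from 0.158 to 0.552 in HL60 alone. These rates therefore do not tell how reliable the calls on the deposited values are.

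Members, lists and fits were chosen with earlier results of these data known, and the fall of TRIM48 and SPRYD5 had been seen, so it is no independent evidence. Named genes are the antiviral members, TRIM28, TRIM48, SPRYD5 and the related copies, members called in any fit, the 4 largest same-sign differences per line, the 5 highest and 5 lowest of each level order, and members called between HL60 and SNU398. Symbols were matched to RefSeq GRCh38.p14 for 55 of 56 members. Promoter windows were aligned with Biopython 1.88 (local mode).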

Additional observations from a re-analysis of the deposited data

How the results depend on the processing

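The count of members called in SNU398 was 0 in the unpaired fit and under each alternative to it, including leaving out each array, and 5 in the fit to the SNU398 pairs alone, a replicate block within the line. That fit gave 4 members with arrays centred, 6 with quantile normalization, 4 with a mean level of at least 9, 2 with trended and robust variance and 5 with zeros as measured; these combinations were added after seeing the data. The replicate block changed no other call. For HL60 minus SNU398 the 5 calls became 0 at a mean level of at least 9, 25 with arrays not averaged, 2 on the 5-Aza-CdR arrays alone, and 0 to 23 when 1 replicate was left out. With arrays centred the median level of members was 8.0 in HL60 and 8.06 in SNU398. The cause of these shifts was not tested.

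Some directions turned, among them that of TRIM8 in SNU398 when 1 array was left out of the unpaired fit. TRIM8 was called on the SNU398 pairs, and both of these were above 0 (0.22 and 0.46). SPRYD5 in HCT116 was -0.059 with quantile normalization in both fits, and TRIM21 in HL60 was -0.00369 with arrays centred in both fits. Leaving out 1 array from the unpaired fit breaks a pair, so the offset between replicate numbers enters the difference. Such omissions moved the HCT116 difference of TRIM5 from -0.73 to 0.76, of TRIM21 from -0.58 to 0.92, of TRIM25 from -0.54 to 0.29, of TRIM28 from -0.83 to 1.59 and of SPRYD5 from -0.54 to 0.60. Of these, TRIM21 had both HCT116 pairs above 0 (0.09 and 0.24), and the others had pairs of opposite sign. In HL60 the ranges were -0.0481 to 0.26 for TRIM5, -0.0285 to 0.0784 for TRIM21, -0.37 to 0.43 for TRIM22, -0.50 to 0.39 for TRIM25, -0.0238 to 0.49 for TRIM28, -0.0932 to 0.37 for TRIM48 and -0.0452 to 0.37 for SPRYD5. In SNU398 they were -0.0209 to 0.073 for TRIM5, -0.00341 to 0.0847 for TRIM22, -0.50 to 0.24 for TRIM28 and -0.12 to 0.80 for TRIM8, while TRIM48 stayed between -1.83 and -1.46 and SPRYD5 between -1.52 and -1.14. With 2 arrays a group, readings near the lowest on an array limit what can be told apart, and whether near-identical copies share a probe was not tested.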

Other observations

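Family relatives without a TRIM symbol were measured on the same arrays. RFPL4B, a member of the related Ret finger protein-like group, read 8.97 and 8.99 under 5-Aza-CdR in SNU398 and 9.45 and 9.75 under the combination. It rose by 0.62 (adjusted p 0.000772, limma on the SNU398 pairs; 1.00 in the unpaired fit), and its groups did not overlap. It was the only 1 of 7 such relatives called on the SNU398 pairs, where 3.66% of all symbols were called and 2.43% called higher. None was called in HCT116 or HL60, where the same fit called 0.202% and 0% of all symbols. PML, the organiser of nuclear bodies, read 8.23 and 10.77 under 5-Aza-CdR in HL60 and 8.04 and 10.08 under the combination, so its replicates lay further apart than its treatments.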
